A study of Mus musculus with 6 samples.

Results

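B cell receptor and identity genes were followed in CD4+CD25+ regulatory T cells (Treg) from Mbd2 knockout and wild-type mice. The set held 9 genes, Cd79a, Cd79b, Ms4a1, Pax5, Spib, Blk, Cd22, Blnk and Ebf1. Their probe sets were those that the platform annotation assigned to 1 of these symbols by current name or alias, which gave 13 of 22690 probe sets on the array and 9 of 12393 genes with a probe set of a single symbol. The cells were Treg, the helper T cells that restrain immune responses, separated magnetically from Balb/c mice. RNA of 3 samples from mice with the genotype MBD2-/- and of 3 samples from wild-type (WT) mice of the same background was hybridised to 1 array each. Mbd2 encodes a protein that binds methylated CpG dinucleotides and joins repressor complexes. The labels give no age, sex or treatment for either group, and they do not say how the allele was made. The submitters called the samples independent, so p-values measure the spread between such samples.

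The B cell receptor is a surface antibody held by a pair of signalling chains, Cd79a and Cd79b. Antigen binding leads Src family kinases such as Blk to phosphorylate these chains, and the adaptor Blnk then brings the kinase Btk and the phospholipase Plcg2 together. Cd22 dampens this signal, Ms4a1 (CD20) is a surface protein of mature B cells, and Ebf1, Pax5 and Spib are transcription factors that set up or maintain the B cell programme. T cells detect antigen with another receptor, built around the CD3 chains.

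RefSeq promoter windows of GRCm38.p6, running from 250 bases before a transcript's start to 50 bases after it, were found for 6 of the 9 genes (7 windows). Those of Cd79a and Blnk, which had the largest differences without wild-type replicate 3, and of Spib, the gene that passed the test there, are shown 5′ to 3′ on the gene's strand with CpG dinucleotides, which Mbd2 binds when methylated, in capitals. The windows lie at chr7:24897247-24897546 (Cd79a, plus strand), chr19:40994172-40994471 (Blnk, minus strand) and chr7:44532022-44532321 (Spib, minus strand).
Cd79a: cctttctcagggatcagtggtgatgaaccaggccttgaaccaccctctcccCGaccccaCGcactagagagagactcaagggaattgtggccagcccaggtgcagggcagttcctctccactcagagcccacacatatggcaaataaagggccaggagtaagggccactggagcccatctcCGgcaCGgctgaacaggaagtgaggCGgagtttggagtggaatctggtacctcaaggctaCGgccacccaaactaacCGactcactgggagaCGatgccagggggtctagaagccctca
Blnk: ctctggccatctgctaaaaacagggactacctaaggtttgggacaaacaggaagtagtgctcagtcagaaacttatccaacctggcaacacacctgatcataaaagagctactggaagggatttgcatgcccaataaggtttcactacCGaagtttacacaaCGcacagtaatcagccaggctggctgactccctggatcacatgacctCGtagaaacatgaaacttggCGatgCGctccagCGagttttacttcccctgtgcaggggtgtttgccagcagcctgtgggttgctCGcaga
Spib: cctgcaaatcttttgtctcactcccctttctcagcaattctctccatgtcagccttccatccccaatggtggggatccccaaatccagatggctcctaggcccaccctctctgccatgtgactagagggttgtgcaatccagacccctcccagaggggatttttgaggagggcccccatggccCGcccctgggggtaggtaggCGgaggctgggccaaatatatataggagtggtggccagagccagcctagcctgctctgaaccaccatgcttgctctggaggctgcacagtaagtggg

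The windows of these 3 genes held few to moderate numbers of CpG, 8 for Cd79a, 7 for Blnk and 2 for Spib. The median over 32851 windows of the same length was 7, with quartiles of 3 and 20. The Cd22 window held 4, the Ebf1 windows 9 and 17, and the Pax5 window 23, so Pax5 had the most CpG among these genes. CCCNNGGG, the core of the site that Ebf1 binds, was searched on both strands, where it reads the same. It occurred in 13.7% of all windows, and among these genes in Spib, as 2 overlapping matches that begin at -65 and -64, and once in Cd22, at -48. The octamer ATGCAAAT, on either strand, occurred in 1.74% of all windows and once in Blnk, at -130 from the start. GGAA, the core bound by Ets factors such as Spib, was present on either strand in 96% of all windows. Methylation was not measured on these arrays, and a match of letters describes the window only.

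Array medians of the deposited log2 values ran from 5.56 to 5.78. The array of wild-type replicate 3 was unlike the rest, with correlations across probe sets of 0.749 to 0.767 with the other arrays, against at least 0.956 among the other 5. Differences of the 9 genes, and most differences of other genes, are therefore given with 6 arrays and again with 5, without that array. Levels averaged over a list cover all 6 arrays unless stated. Mbd2 was lower in every knockout array than in every wild-type array on both of its probe sets. The brighter one read 5.93, 5.71 and 6.14 in knockout and 8.80, 8.66 and 6.93 in wild-type replicates 1 to 3, a log2 difference of -2.21 with 6 arrays (limma adjusted p = 0.548) and -2.80 with 5 (limma adjusted p = 0.0019). The sources used here do not state which part of Mbd2 was deleted, so these probe sets may lie outside it and would then not check the labels. Genes of T cell identity were well measured: 11 of 11 exceeded the cutoff for dim probe sets on all arrays, and so did 6 of 7 Treg genes. Foxp3, the transcription factor that defines Treg, read 7.98, 6.62 and 8.17 in knockout and 8.83, 8.74 and 6.93 in wild type.

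The comparison of knockout with wild-type cells asked how levels of these genes differed when Mbd2 was absent. The RNA of B cell genes was higher in knockout cells: 8 of the 9 genes had a positive log2 difference with 6 arrays and 9 of 9 with 5. For 7 genes all knockout arrays lay above all wild-type arrays, a pattern shown by 7.91% of all 12393 genes. Without wild-type replicate 3 this held for 9 of 9 genes, against 17.4% of all genes. Counted by probe set, 10 of 13 did not overlap with 6 arrays and 13 of 13 with 5, against 7.21% and 15.9% of all probe sets. The median log2 difference over the 9 genes was 1.62 with 6 arrays and 1.16 with 5, while the medians over all 12393 genes were -0.02 and -0.01. Blnk had the largest difference in both fits, and Pax5 was the gene whose sign depended on wild-type replicate 3. The counts of 9 of 9 and 13 of 13 with 5 arrays include Pax5. Its values on those arrays (4.52 to 4.83) all lay under the cutoff for dim probe sets, so it adds no direction. In RNA from bulk samples, more cells of a type and more RNA per cell cannot be told apart.

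None of the 8 genes past the filter on dim probe sets (mean log2 above 5.18 over the 6 arrays) passed an adjusted p of 0.05 in the limma fit of 6 arrays, where 0.103% of probe sets passed in either direction. At an unadjusted p under 0.05, 6 of the 8 were higher, against 3.48% of probe sets tested. With 5 arrays limma called 1 of the 8, Spib, where 0.67% of probe sets were called higher. At an adjusted p under 0.1 the count was 6 of 8, against 2.22%, and at an unadjusted p under 0.05 it was 8 of 8, against 6.95%. Both counts include Ebf1, which passed the filter through its knockout arrays (group means of 5.53 in knockout and 4.98 in wild type). Its place in them is therefore no independent support. Pax5, the member under the filter, is given by its values. The count with 5 arrays depended on single arrays. Without knockout replicate 2 as well, 1136 of the 13575 probe sets tested were called higher and 1401 lower, against 91 and 99. The member count rose there to 7 genes (Cd79a, Cd79b, Spib, Blk, Cd22, Blnk and Ebf1), with differences from 0.74 to 1.91. Leaving out knockout replicate 1, knockout replicate 3, wild-type replicate 1 or wild-type replicate 2 lowered it to 0.

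**Figure D1:**
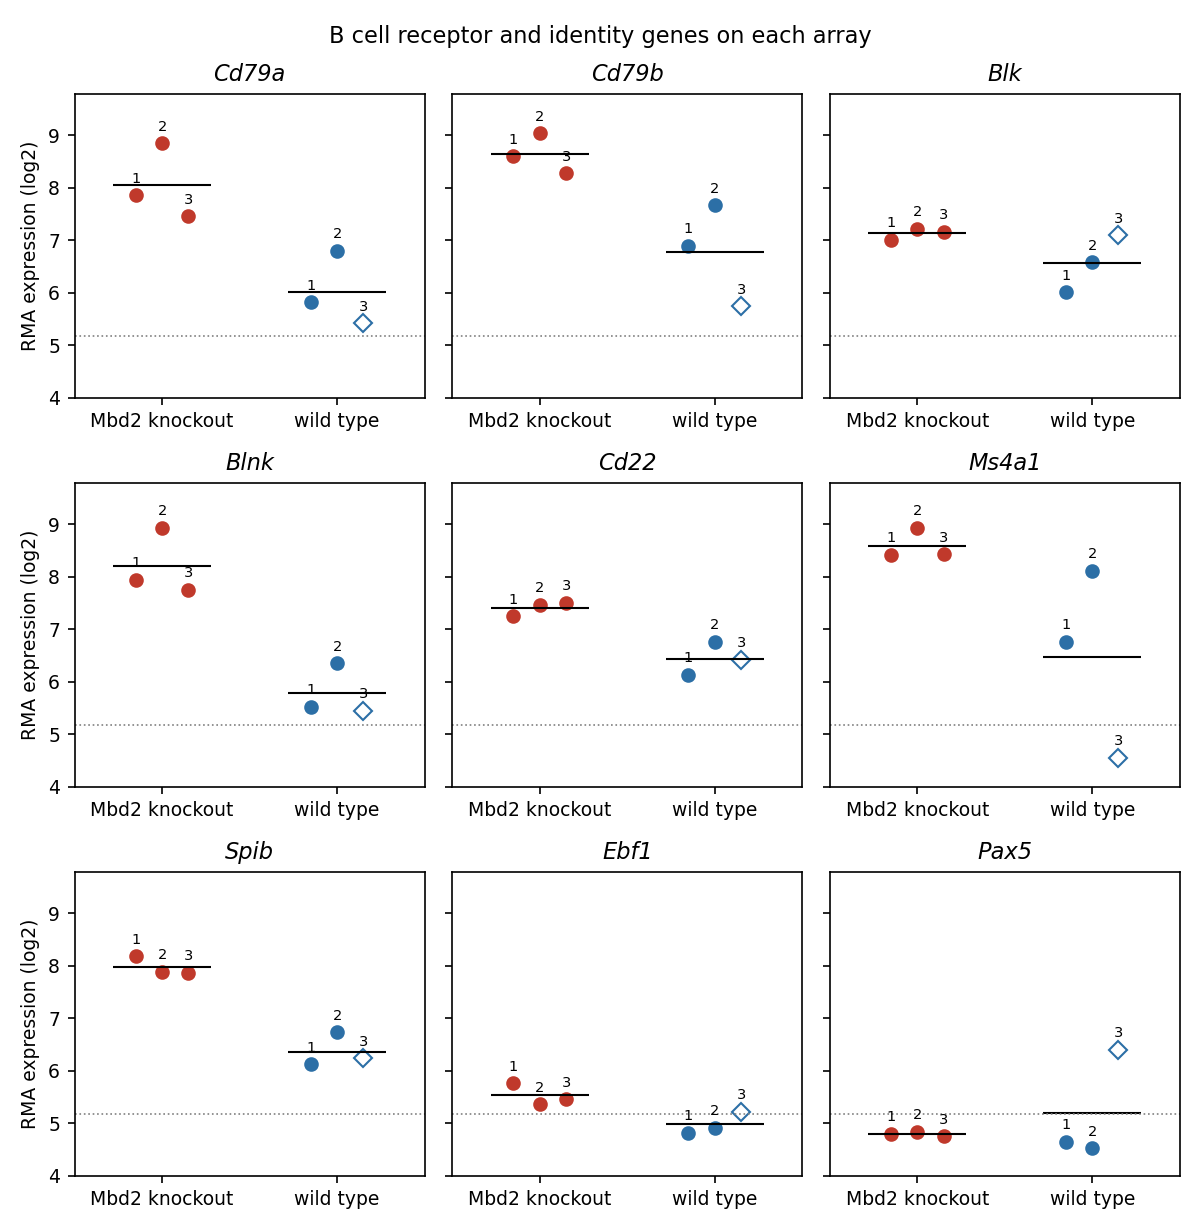
RMA log2 expression (y axis) of the brightest probe set of each of the 9 genes on the 3 Mbd2 knockout and 3 wild-type arrays, numbered by replicate; black bars are group means, the open diamond is wild-type replicate 3, and the dotted line is the cutoff of 5.18 for dim probe sets. All knockout points lie above all wild-type points for 7 genes, while Blk and Pax5 overlap through wild-type replicate 3.

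The signalling chains of the receptor were both higher in knockout cells. Cd79a read 7.86, 8.85 and 7.46 in knockout replicates 1, 2 and 3, against 5.82, 6.80 and 5.42 in wild-type replicates 1, 2 and 3. The groups did not overlap, and replicate 2 was the highest array of each group. The log2 difference was 2.04 (SE 0.50, 4.12-fold, limma adjusted p = 0.578) with 6 arrays and 1.75 (SE 0.47, 3.35-fold, limma adjusted p = 0.123) with 5. Cd79b, its partner chain, read 8.61, 9.04 and 8.28 in knockout, against 6.90, 7.67 and 5.74 in wild type. Every knockout array again lay above every wild-type array, and wild-type replicate 3 was the lowest of the 6. The log2 difference of Cd79b was 1.87 (SE 0.51, 3.66-fold, limma adjusted p = 0.735) with 6 arrays and 1.36 (SE 0.30, 2.56-fold, limma adjusted p = 0.0886) with 5.

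The kinase and the adaptor next to these chains differed in the size of the shift. Blnk, the adaptor also called SLP-65, read 7.95, 8.94 and 7.75 in knockout, against 5.53, 6.36 and 5.45 in wild type. The gap between the groups was 1.40 from the lowest knockout to the highest wild-type array, and the log2 difference was 2.44 (SE 0.41, 5.42-fold, limma adjusted p = 0.244). It was 2.27 with 5 arrays (SE 0.41, limma adjusted p = 0.0611). Blk, the Src family kinase, read 7.01, 7.22 and 7.16 in knockout, against 6.01, 6.58 and 7.10 in wild type. Wild-type replicate 3 lay among the knockout arrays and the other wild-type arrays lay below them. The log2 difference of Blk was 0.57 (SE 0.32, limma adjusted p = 0.829) with 6 arrays and 0.84 (SE 0.18, limma adjusted p = 0.0873) with 5.

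Of the surface proteins, Cd22, an inhibitory co-receptor that binds sialic acid, differed by less than Ms4a1 but with a smaller spread. Its brighter probe set read 7.25, 7.47 and 7.50 in knockout, against 6.13, 6.77 and 6.42 in wild type, with no overlap. The log2 difference was 0.97 (SE 0.25, limma adjusted p = 0.615) with 6 arrays and 0.96 (SE 0.20, limma adjusted p = 0.0815) with 5, so wild-type replicate 3 hardly moved it. The dim second probe set of Cd22 read 5.39, 5.21 and 5.50 in knockout, against 4.66, 4.81 and 5.32 in wild type, and overlapped. Ms4a1, the target of CD20 antibodies, read 8.42, 8.94 and 8.44 in knockout, against 6.77, 8.12 and 4.55 in wild type. The wild-type arrays spread over more than the distance between the group means, with an SD of 0.30 in knockout and 1.80 in wild type. The log2 difference of Ms4a1 was 2.12 (SE 0.85, limma adjusted p = 0.829) with 6 arrays and 1.16 (SE 0.40, limma adjusted p = 0.182) with 5. Its second probe set gave 1.24 and 0.84 in these fits, and its knockout arrays (5.90 to 6.34) lay above its wild-type arrays (4.06 to 5.59).

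The 3 transcription factors ranged from the firmest difference of the set to none that could be read. Spib, an Ets factor of B cells and of plasmacytoid dendritic cells, read 8.19, 7.89 and 7.87 in knockout, against 6.12, 6.74 and 6.24 in wild type. The groups were 1.13 apart at their closest, and each group was tight, with SDs of 0.18 in knockout and 0.33 in wild type. Spib rose by a log2 difference of 1.55 in the fit of 5 arrays (SE 0.21, 2.94-fold, limma adjusted p = 0.0353). With 6 arrays the difference was 1.62 (SE 0.25, 3.06-fold, limma adjusted p = 0.189), so the size was alike and the call was not made. Ebf1, a pioneer factor of the B lineage that acts from the progenitor stage on, was dim. Its brightest probe set read 5.76, 5.37 and 5.46 in knockout, against 4.82, 4.92 and 5.22 in wild type, and the group mean of 4.98 in wild type lay under the cutoff. The difference was 0.55 (SE 0.23, limma adjusted p = 0.829) with 6 arrays and 0.66 (SE 0.14, limma adjusted p = 0.0837) with 5. The other probe sets of Ebf1, both under the filter, had differences of 0.70 and 1.18 with 6 arrays and 0.68 and 1.09 with 5. All 3 Ebf1 probe sets were higher in every knockout array than in every wild-type array.

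Pax5, the factor that commits cells to the B lineage, read 4.80, 4.83 and 4.76 in knockout, against 4.65, 4.52 and 6.41 in wild type. Its 5 values without wild-type replicate 3 all lay under the cutoff of 5.18, and the single high value belonged to that array. The difference was -0.40 with 6 arrays (SE 0.52, limma adjusted p = 0.818 in the fit without the filter). It was 0.21 with 5 arrays (SE 0.08, limma adjusted p = 0.241 in that fit). With values this low, no direction is drawn for Pax5.

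**Figure D2:**
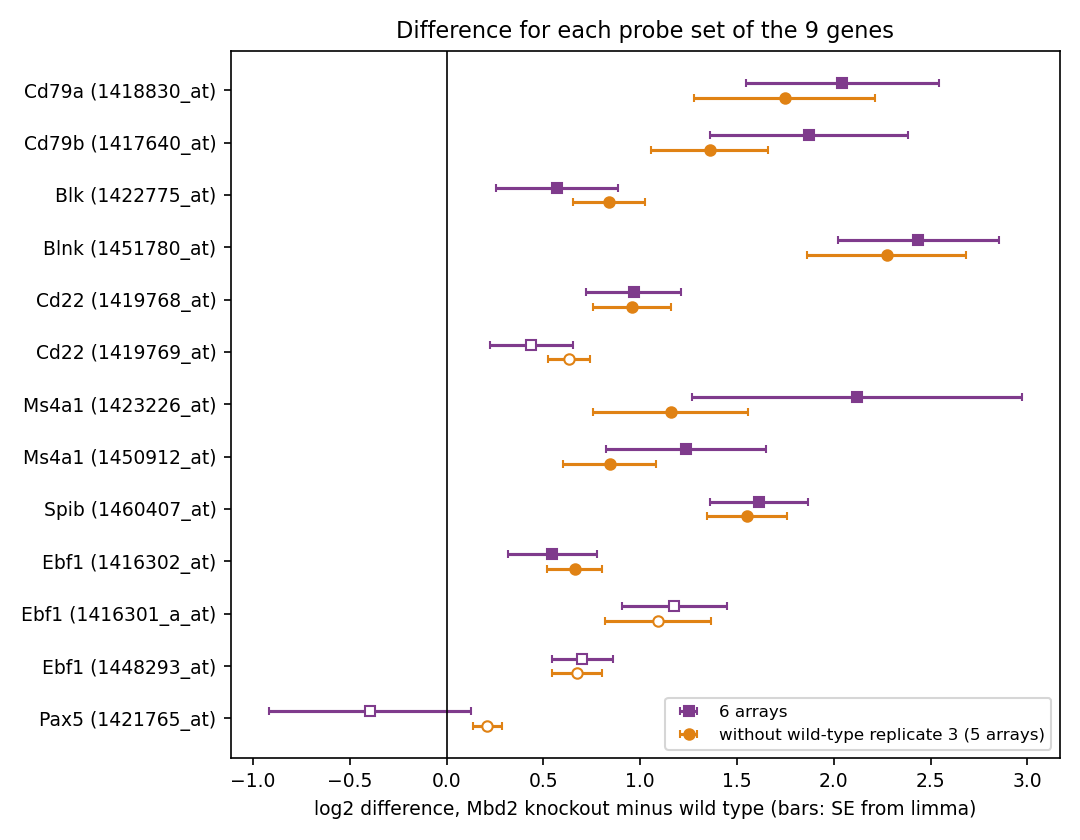
Log2 difference, Mbd2 knockout minus wild type (x axis), for each of the 13 probe sets with SE bars from limma, for 6 arrays (squares) and for 5 arrays without wild-type replicate 3 (circles); open symbols are probe sets under the filter, whose SE comes from the fit without it. With 5 arrays all 13 lie above 0; with 6 arrays Pax5 alone lies below it, at -0.40.

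The genes also varied within each group. Wild-type replicate 2 was above wild-type replicate 1 for 8 of the 9 genes, which held for 43.5% of all genes. This gap was 0.99 for Cd79a, 0.77 for Cd79b, 0.83 for Blnk and 1.35 for Ms4a1. For Ms4a1, and for no other of the 9 genes, it was larger than the difference between knockout and wild type with 5 arrays. Knockout replicate 2 was the highest of the 6 arrays for 5 of the 9 genes, against 13.7% of all genes. Wild-type replicate 3 was the lowest of the 6 for 4 genes, close to the 44.4% found over all genes, and the highest for Pax5. Averaged over the 9 genes, the level was 7.32, 7.62 and 7.19 in knockout and 5.86, 6.50 and 5.84 in wild-type replicates 1, 2 and 3. The lowest knockout average thus stood above the highest wild-type average.

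**Figure D3:**
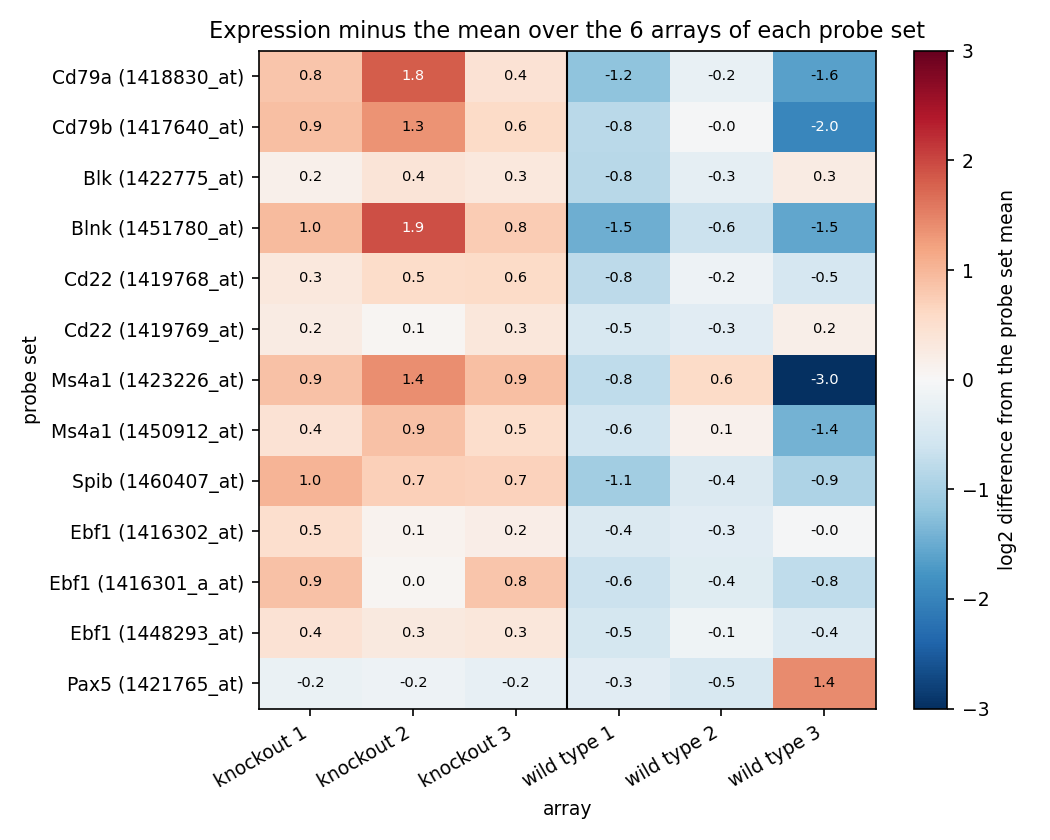
Log2 expression of each of the 13 probe sets minus its own mean over the 6 arrays, with the 3 knockout arrays left of the line and the 3 wild-type arrays right of it. Red is above and blue below the mean; Cd79a, Blnk and the brighter Ms4a1 probe set peak in knockout replicate 2, and Pax5 is high in wild-type replicate 3 only.

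Other genes of B cell receptor signalling were split in direction, with 10 of 18 tested higher in knockout with 6 arrays and 8 of 18 with 5. Of 26 listed signalling and co-receptor genes, 19 had a probe set and 18 passed the filter. None of the 18 was called with 6 or with 5 arrays, and their median differences were 0.06 and -0.11, beside 0.16 and -0.06 over all 8190 genes tested. Syk, the kinase that binds the phosphorylated signalling chains, was at 1.39 with 6 arrays (limma adjusted p = 0.829) and 1.89 with 5 (limma adjusted p = 0.0607). Btk, which Blnk recruits, was at 0.98 with 6 arrays (limma adjusted p = 0.829) and 1.23 with 5 (limma adjusted p = 0.0615). Plcg2, the phospholipase activated in the same complex, was chosen for mention after its values were seen. It read 7.66, 8.72 and 7.71 in knockout, against 5.85, 6.51 and 5.58 in wild type. The difference of Plcg2 was 2.05 with 6 arrays (limma adjusted p = 0.36) and 1.85 with 5 (limma adjusted p = 0.0745). Syk, Btk and Plcg2 are also used by myeloid cells.

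Among antibody genes, 3 of 7 listed had a probe set and all 3 were bright in both groups. Iglv1, a lambda light chain segment, read 12.48, 13.56 and 12.34 in knockout, against 9.85, 10.49 and 7.11 in wild type. It rose by 2.62 with 5 arrays (SE 0.40, limma adjusted p = 0.0484) and was at 3.64 with 6 (limma adjusted p = 0.584). Without the filter on dim probe sets the 5-array call was lost (limma adjusted p = 0.0603). Ighm, the heavy chain of IgM, read 14.38, 14.35 and 14.33 in knockout, against 13.58, 13.96 and 13.22 in wild type, near the top of the scale on every array. Its difference was 0.58 with 5 arrays (limma adjusted p = 0.0948). Igha, the heavy chain of IgA, overlapped, at 12.09, 14.08 and 11.59 in knockout and 11.54, 12.54 and 10.61 in wild type. The difference of Igha was 1.02 with 6 arrays (limma adjusted p = 0.829) and 0.55 with 5 (limma adjusted p = 0.698). The Iglv1 and Ighm probe sets are of a type shared by several transcripts, so their signal cannot be tied to a single segment.

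Transcription factors of the B lineage other than the members were mixed, with 0 of 14 called in either fit and medians of 0.21 and 0.10. Spi1, the PU.1 factor of B and myeloid cells, was at 1.61 with 6 arrays and 1.87 with 5 (limma adjusted p = 0.0603), and Bcl11a was at 0.43 and 0.65. Pou2af1, a coactivator of antibody genes singled out after its values were seen, read 8.51, 10.61 and 8.71 in knockout, against 6.61, 7.36 and 4.35 in wild type. Its difference was 3.17 with 6 arrays (limma adjusted p = 0.784) and 2.29 with 5 (limma adjusted p = 0.136). Of 10 tested genes of the mature B cell surface, 0 were called and the medians were 0.36 and 0.26. Ly86, which pairs with the receptor CD180, was at 2.21 and 1.91 (limma adjusted p = 0.421 and 0.0841), and the tetraspanin gene Cd37 was at -0.06 and -0.49. All 7 MHC class II genes were higher in knockout, with medians of 2.21 and 1.84 and none called. H2-Ab1 was at 2.27 and 1.92, and H2-Aa at 2.58 and 1.88, both on probe sets of a type that several transcripts can share.

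B cell progenitor genes were measured beside the mature ones. All 4 tested of 6 were higher in both fits, with medians of 1.05 with 6 arrays and 1.23 with 5, and 1 was called with 5 arrays. The second median takes another Dntt probe set than the first, the brighter one over the 5 arrays, and it was 1.07 with the Dntt probe set of the 6-array fit, which the plot of the lists shows. The called gene, Cd93, is also found on monocytes and neutrophils. It rose by 1.11 with 5 arrays (SE 0.13, limma adjusted p = 0.0239) and was at 1.19 with 6 (limma adjusted p = 0.286). Cd93 read 6.26, 6.08 and 6.07 in knockout, against 4.89, 5.17 and 4.78 in wild type. All its wild-type values lay under the cutoff of 5.18, so it passed the filter through its knockout arrays. Vpreb1, part of the surrogate light chain of pre-B cells, read 8.68, 6.04 and 7.73 in knockout, against 5.68, 5.67 and 6.08 in wild type. Knockout replicate 2 lay within the wild-type range for this gene. The difference was 1.67 (limma adjusted p = 0.829) with 6 arrays and 1.81 (limma adjusted p = 0.219) with 5.

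**Figure D4:**
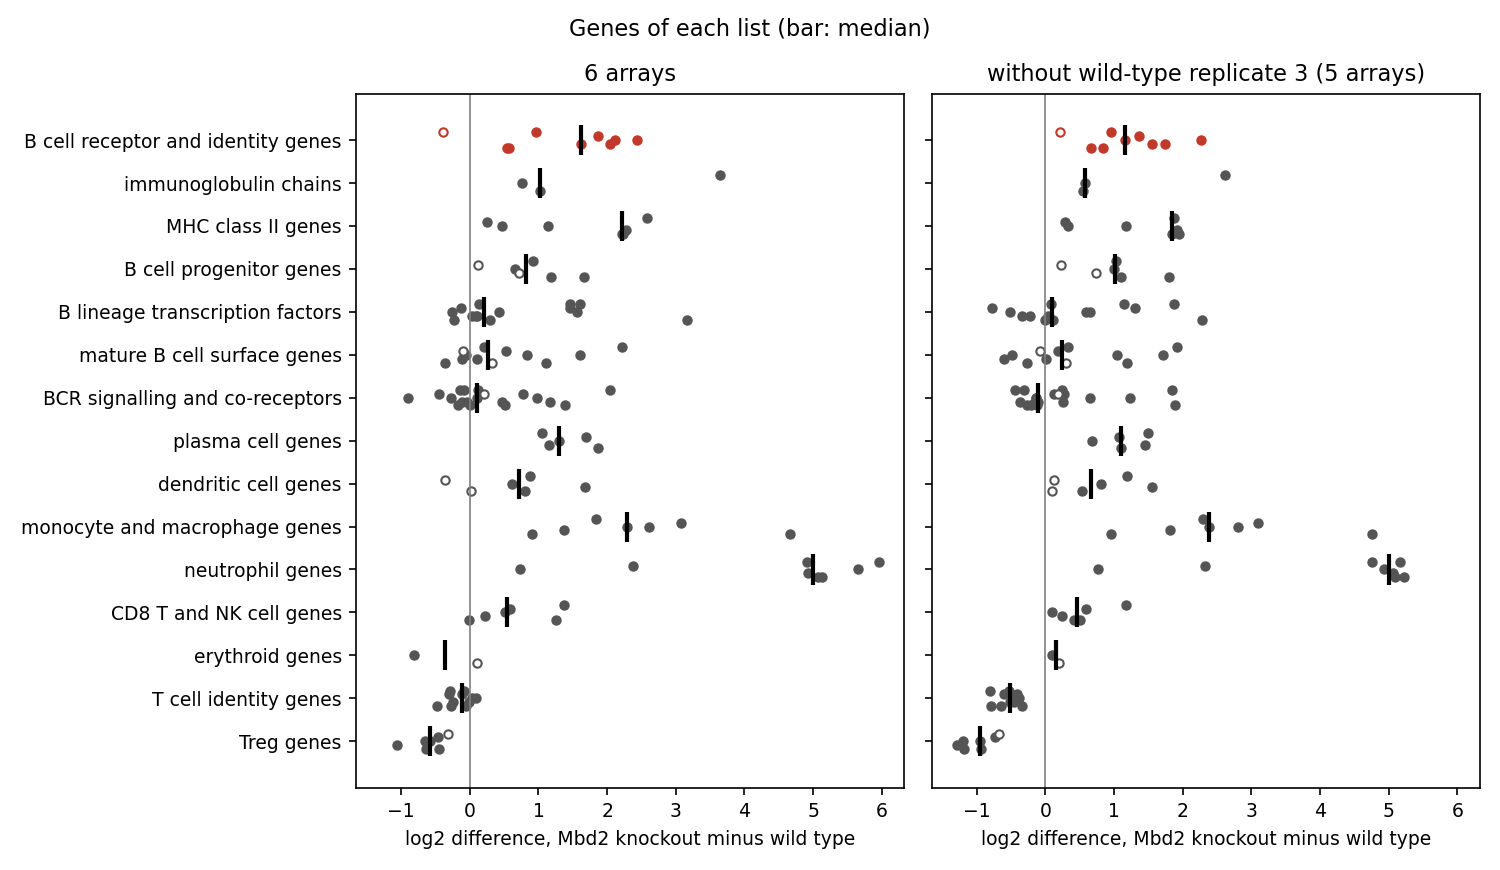
Log2 difference, Mbd2 knockout minus wild type (x axis), for each gene of the lists (rows), with 6 arrays on the left and 5 arrays without wild-type replicate 3 on the right; bars are medians over all genes drawn, and open points are genes under the filter. The 9 B cell receptor and identity genes (red) have medians of 1.62 and 1.16, below the medians of the neutrophil genes (5.0 in both panels) and above those of T cell identity genes (-0.11 and -0.52).

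Markers of several other cell types moved with the B cell genes, and their part in the result was not tested. The mean level of 8 neutrophil genes lay between 10.32 and 10.68 in knockout and between 5.76 and 6.89 in wild type, with 4 called higher with 6 arrays and 6 with 5. Camp, a neutrophil granule peptide, was at 5.12 with 6 arrays (limma adjusted p = 0.0133) and 5.10 with 5 (limma adjusted p = 0.0096). The 7 monocyte and macrophage genes had mean levels of 7.43 to 8.89 in knockout and 5.23 to 5.96 in wild type, with 1 called higher with 6 arrays and 2 with 5, or 1 with 5 arrays without the filter. Plasma cell genes (5 measured) ran from 8.64 to 10.35 in knockout and from 7.30 to 8.28 in wild type, with 0 called. Dendritic cell genes (6 measured) ran from 6.15 to 6.80 in knockout and from 5.55 to 6.0 in wild type, with 0 called. CD8 T and NK cell genes (6 measured) ran from 6.45 to 7.17 in knockout and from 5.79 to 6.24 in wild type, with Eomes called with 5 arrays. The 2 measured erythroid genes ran from 4.83 to 5.10 in knockout and from 4.78 to 6.32 in wild type. Mean levels of the 11 T cell identity genes were 9.29 to 9.98 in knockout and 9.14 to 10.30 in wild type, and 0 of 11 were called in either fit. Without wild-type replicate 3 the wild-type arrays lay at 10.27 and 10.30, above every knockout array. Of the 11 genes, 2 were higher in knockout with 6 arrays and 0 with 5. Mean levels of the 7 Treg genes were 7.14 to 8.18 in knockout and 7.55 to 8.80 in wild type, also with 0 called. Without wild-type replicate 3 the wild-type arrays lay at 8.71 and 8.80, above every knockout array. Of the 6 Treg genes tested, 0 were higher in knockout in either fit, with medians of -0.61 with 6 arrays and -1.07 with 5.

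The genes whose pattern over the 6 arrays was most like the mean of the 8 members past the filter were found among 8182 other genes, by the root mean square difference of centred log2 values. In order they were Spry2, Clec4a2, Igkv8-30, Adamtsl4, Lmo2, Dstn, Ahsa2 and Aldh2, with values from 0.176 to 0.225. The members themselves lay from 0.242 (Spib) to 0.837 (Ms4a1) from their own mean over 6 arrays and from 0.0957 (Cd79b) to 0.531 (Blnk) over 5, whereas the 8 genes were picked as the closest. Clec4a2, a lectin receptor of myeloid cells, read 6.15, 6.86 and 6.04 in knockout, against 4.82, 5.06 and 4.49 in wild type. Igkv8-30, a kappa light chain segment on a probe set that several transcripts share, read 12.93, 13.62 and 12.92 in knockout, against 11.87, 12.54 and 11.25 in wild type. Over the 5 arrays the 8 most alike were Ogfrl1, Spry2, Jchain, Dok3, Dstn, Btk, Olfm1 and Csf2ra, and 2 genes were shared with the first list. Jchain, the joining chain of secreted antibodies, and Btk were in lists written for plasma cells and for B cell receptor signalling. All these genes were ranked on the arrays that also give the differences, so the likeness is a description.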

How the data were processed

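Expression was measured on 6 single-colour arrays, 3 per group, with groups and replicate numbers from the sample titles. The deposited values are log2 expression per probe set, made by the authors with RMA per the submitters' processing notes (background correction, quantile normalization, probe summary). The sources used here give neither its version nor which arrays were normalized together, and detection calls were not used here. The deposited values of wild-type replicate 3 did not share the distribution of the other 5 arrays, and the reason was not tested. After removal of 64 control probe sets, 22626 were annotated through gene IDs (RefSeq, GRCm38.p6, for names). Single symbols were found for 20380, several for 691, and 1555 were unlisted. The lowest 40% by mean were left out, and the fit of the other 13575 used R 4.3.3 and limma 3.58.1 (lmFit, eBayes), with Benjamini-Hochberg adjustment over all of them and a threshold of 0.05. A gene is its probe set with the highest mean, so levels of different genes are not compared. The fit was tested on simulated data drawn with the spread of the 5 arrays. That test leaves out the spread that wild-type replicate 3 adds to the fit of 6. Members and lists were chosen with earlier results of these data known. Named genes were all members, Mbd2 and the 8 most alike, with examples drawn from list genes past the threshold or with the 2 smallest p in the 5-array fit. Foxp3, Igha, Igll1, Rag1, Plcg2 and Pou2af1 fall outside this rule and were chosen after their values were seen. Alternatives covered the filter, variance model, array weights, normalization, mean of probe sets, replicate block, threshold and each array left out. The number of arrays limits the precision. Figures used matplotlib 3.10.9.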

Additional observations from a re-analysis of the deposited data

How the results depend on the processing

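With 6 arrays the count of member genes called was 0 to 1 over the fits that left out 1 array, 7 with array weights and 6 at a 1.5-fold difference with an unadjusted p under 0.05. The count of probe sets was 0 to 190 over the left-out arrays (190 without wild-type replicate 3, 0 without knockout replicate 1 or 2), against 14. It was 8 without the filter, 524 at the unadjusted threshold and 2323 with array weights. Those weights were 0.448, 4.39 and 0.0289 for wild-type replicates 1 to 3, and 8.24, 0.585 and 3.65 for knockout replicates 1 to 3. The wild-type group thus rested mostly on replicate 2 in that fit. The member median was 1.16 to 1.80 over the left-out arrays and 0.69 with array weights. It was 1.44 after quantile normalization was run again. With 5 arrays, member genes called were 0 to 7 and probe sets 18 to 2537 over the left-out arrays, against 1 and 190. They were 6 and 779 at an adjusted p under 0.1, 8 and 889 at the unadjusted threshold, and 7 and 3783 with array weights, and the member median was 0.64 to 1.74 over the left-out arrays. Pax5, at -0.40, turned to 0.24 with array weights and ran from -0.73 (without wild-type replicate 2) to 0.21 (without wild-type replicate 3) over the left-out arrays. The other 8 members kept a positive difference in every fit run. The deviations of same-numbered arrays from their group means correlated at 0.15, -0.09 and -0.14. Wild-type replicate 3 weighs on the group means, so these values cannot show whether the replicate numbers pair the samples. With the replicate number as a block, 0 member genes and 10 probe sets were called with 6 arrays, and 7 member genes and 561 probe sets with 5. Causes of these changes were not tested. Averaging the probe sets of a gene gives no count of probe sets. A dim probe set such as that of Pax5 limits what these arrays can show.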

Other observations

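The place of knockout replicate 2 among the 3 knockout arrays differed between the gene lists, a pattern noticed after the values were seen and given without a test. It was the lowest for 5 of 6 progenitor genes, against 45.9% of all genes, and the highest for 0 of 6. Igll1, the other part of the surrogate light chain, read 8.17, 6.53 and 7.21 in knockout replicates 1, 2 and 3 and 6.33, 6.21 and 6.60 in wild type. Rag1, a recombinase of antigen receptor genes, read 6.03, 4.89 and 5.20 in knockout and 4.53, 4.74 and 4.67 in wild type. Knockout replicate 1 was the highest of the 3 knockout arrays for all 6 progenitor genes, against 3816 of all 12393 genes. Only 4 of the 6 progenitor genes passed the filter on dim probe sets, which limits these counts. All 3 Ebf1 probe sets were lowest in knockout replicate 2 among the knockout arrays as well, while 6 of the 9 B cell receptor and identity genes and 7 of 7 MHC class II genes were highest there, against 35.9% of all genes. The 6 genes include Pax5, whose knockout values all lay under the cutoff for dim probe sets. The other B cell lists were mixed: the replicate was highest for 6 and lowest for 4 of 12 mature B cell surface genes, highest for 5 and lowest for 8 of 14 B lineage transcription factors, and highest for 11 and lowest for 8 of 19 signalling genes. It was the highest for 7 of 7 monocyte and macrophage genes, 6 of 6 dendritic cell genes and 5 of 5 plasma cell genes. The T cell identity genes were lowest in that array for 11 of 11, and so were 7 of 7 Treg genes.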
